A study of Taeniopygia guttata with 2 samples.

Results

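DDX4 (ENSTGUG00000002548), the vertebrate counterpart of the Drosophila gene vasa, is the subject here, as 1 of the 20511 genes counted in the gonads of zebra finch embryos. It was selected on measured values, namely its UMIs per germ cell by sex and by SOX3 status, its male to female ratio beside that of genes of similar level, and its level in somatic cells and near-empty barcodes. All of these are therefore descriptions and none was tested. A UMI is a molecular tag that counts 1 captured RNA molecule. Gonads of 7 male embryos and of 7 female embryos at Hamburger Hamilton (HH) stage 28, sexed by PCR and with no treatment or genetic change named in the labels, went into a male and a female pool, from each of which 1 single-cell library was made on the 10× Chromium system. With 1 library per sex, sex and library cannot be told apart, the embryos of a pool cannot be told apart either, and every interval below covers counting error only.

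DDX4 encodes an RNA helicase of the DEAD-box family, an enzyme that uses ATP to open or remodel RNA. In animals it is among the most widely used markers of germ cells, where the protein gathers with piRNA pathway proteins in cytoplasmic granules called nuage. In birds the gene is on chromosome Z. Male birds are ZZ and females ZW, and expression of Z genes is in general only partly evened out between the sexes. The primordial germ cells of the gonad at this stage are the precursors of sperm and eggs.

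The RefSeq annotation of assembly bTaeGut7.mat lists DDX4 once, as a protein-coding gene on chromosome Z, and 0 other RefSeq genes overlap it. Whether reads from a copy elsewhere in the genome were counted with DDX4 was not tested. The study amplified DDX4 with 2 pairs of PCR primers, which are shown because they define transcript sequence by which the gene can be measured apart from the libraries. All are written 5′ to 3′ in lower case, with no part set in capitals.
RT-PCR forward primer: tgtgcccagacaggatcagg
RT-PCR reverse primer: gcatgcggtctgcttcatcc
Quantitative RT-PCR forward primer: gcaggacgcaacacaatgg
Quantitative RT-PCR reverse primer: tcaagggatgggagtaacgc

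The UMIs added up to 124217899 in the male and 98701138 in the female library. Barcodes with at least 5000 UMIs were taken as cells, 8422 male with a median of 9499 UMIs and 6900 female with a median of 9538 UMIs. Germ cells were those with at least 5 UMIs of DND1, a germ cell RNA-binding gene, and numbered 578 male (median of 17630 UMIs) and 399 female cells (19940 UMIs). Somatic cells were the 6482 male and 6016 female cells with no DND1 UMI. The 1362 male and 485 female cells with 1 to 4 DND1 UMIs were put in neither class. Of the cell barcodes, 17 occurred in both libraries, and 0 of them were germ cells in both.

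In germ cells, DDX4 was higher in the male than in the female library. It gave 6219 UMIs in male germ cells, a level of 575 CPM (UMIs of the gene scaled to all UMIs of the class; 95% exact Poisson interval 560.5 to 589), or 10.8 UMIs per cell. In female germ cells it gave 1437 UMIs, 178 CPM (169 to 188), or 3.60 UMIs per cell. The male level was 3.22 times the female level (exact interval 3.04 to 3.41), a log2 ratio of 1.69. DND1, which defined the cells, was at 1602 CPM in the male and 1554 CPM in the female library, a ratio of 1.03 (1.007 to 1.055).

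The difference in DDX4 ran through the cells rather than resting on a few. Male germ cells held a median of 10 DDX4 UMIs, with a lowest value of 0 and a highest of 57, and female germ cells a median of 3, from 0 to 15. The 10th percentile of the male cells was 4 UMIs and the 90th percentile of the female cells was 7. The ranges overlapped, and 4.26% of the female cells reached the male median. At least 1 DDX4 UMI was seen in 98.8% of male germ cells (exact binomial interval 97.5 to 99.5%) and 91.7% of female germ cells (88.6 to 94.2%).

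Since the female germ cells were deeper, every germ cell was also thinned to 5000 UMIs by drawing UMIs at random. After thinning, the male cells held a mean of 2.95 and a median of 3 DDX4 UMIs, and the female cells a mean of 0.842 and a median of 1. Averaged over all possible draws, the means were 2.90 and 0.877. DDX4 was then detected in 91.2% of male (88.6 to 93.4%) and 52.1% of female germ cells (47.1 to 57.1%). At equal depth, 8.52% of the female cells reached the male median. The variance of the thinned UMIs over cells was 1.43 times the mean in the male and 1.33 times in the female library, where counting error alone gives a ratio near 1.

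**Figure D1:**
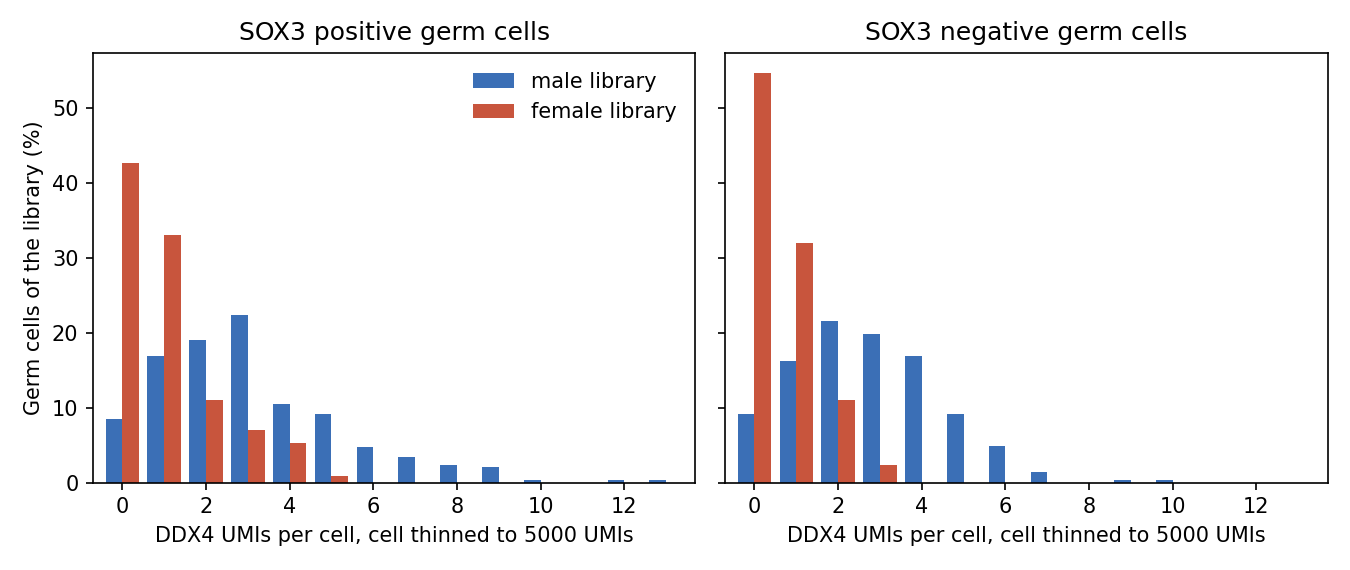
DDX4 UMIs per germ cell after every cell was thinned to 5000 UMIs (x axis), as the percentage of the germ cells of each library (y axis), for cells with at least 1 SOX3 UMI (left) and with none (right). In this single random draw, male cells (blue) have a median of 3 in both panels, while female cells (red) have a median of 1 at left and 0 at right. Averaged over all possible draws, the female means are 0.983 at left and 0.736 at right.

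The male excess held at all depths. Among germ cells from 5000 to below 10000 UMIs, 44 male cells had 620.2 CPM and 22 female cells 218 CPM, a ratio of 2.84 (1.99 to 4.17). From 10000 to below 20000 UMIs the ratio was 3.71 (3.365 to 4.10), and from 20000 UMIs it was 2.98 (2.77 to 3.21). Barcodes with 500 to below 5000 UMIs and at least 2 DND1 UMIs, called shallow germ barcodes here and left out of the germ cells, showed it too. The 465 male ones had 611 CPM (558 to 668) of DDX4 and the 215 female ones 148 CPM (112 to 191), a ratio of 4.14 (3.15 to 5.54). Few cells lay near the count of 5 DND1 UMIs that set the class apart. Just inside it, DDX4 was at 189 CPM in the 4 male and 158 CPM in the 7 female cells with 5 DND1 UMIs, and just outside, at 135 CPM in the 8 male and 21.4 CPM in the 5 female cells with 4, the last from 1 DDX4 UMI.

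SOX3 encodes a transcription factor of the SOX family, and whether a germ cell held a SOX3 UMI was part of how DDX4 was chosen. The share with a SOX3 UMI was 51.0% in male (46.9 to 55.2%) and 56.9% in female germ cells (51.9 to 61.8%). Where SOX3 was detected, DDX4 was at 608 CPM (588 to 628) in 295 male cells and 200 CPM (188 to 213) in 227 female cells, a ratio of 3.04 (2.83 to 3.26) and a log2 ratio of 1.60. Where it was not, DDX4 was at 536 CPM (515.5 to 557) in 283 male cells and 146 CPM (133 to 160) in 172 female cells, a ratio of 3.67 (3.32 to 4.05) and a log2 ratio of 1.87. DDX4 thus differed more between the libraries than between SOX3 classes of the same library.

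Within each library DDX4 was the higher in cells with SOX3. The ratio of cells with to cells without a SOX3 UMI was 1.13 (1.08 to 1.19) in the male and 1.37 (1.225 to 1.53) in the female library. Cells with SOX3 were also the deeper ones, with a median of 19100 against 16750 UMIs in the male and 20670 against 19110 UMIs in the female library. In the cells from 10000 to below 20000 UMIs, DDX4 was at 607 CPM with and 553.5 CPM without SOX3 in the male, and at 171 and 138 CPM in the female library. The part of depth in the SOX3 classes was not tested beyond these values. SOX3 itself was at 210.3 CPM in the male and 228 CPM in the female germ cells, a ratio of 0.924 (0.868 to 0.983).

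Few genes at the level of DDX4 differed as much. Of 838 genes whose mean level in germ cells was within 2-fold of that of DDX4, 3 (0.358%) had a higher male to female ratio. The median of the 838 genes on the log2 scale was -0.05, with a 5th percentile of -0.30 and a 95th of 0.32, so that the log2 ratio of 1.69 of DDX4 was far outside their bulk. Those above it were ENSTGUG00000015973, with no symbol in the files, at 8.45-fold, and the hemoglobin genes HBAD at 5.08-fold and HBAA at 3.47-fold. Next below DDX4 came ENSTGUG00000028184 at 2.56-fold, followed by the cell cycle gene CKS2 at 2.34-fold, the RNA exosome gene EXOSC5 at 2.18-fold and the clathrin gene CLTA at 2.14-fold, the last 3 of these on chromosome Z. In the cells with SOX3, 0 of 767 genes of similar level had a higher ratio than DDX4, and in those without it 3 of 925 genes (0.324%).

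Hemoglobin in the male germ cells came mostly from 2 barcodes. Germ cells in which at least 1% of the UMIs were HBAD or HBAA numbered 2 in the male and 0 in the female library, and those 2 held 67.4% of the 17571 hemoglobin UMIs of male germ cells. They held 19 DDX4 UMIs. Without them, an alternative chosen after seeing the data, HBAD stood at 1.57-fold and HBAA at 1.30-fold, DDX4 at 3.23-fold, and 1 of 835 genes of similar level, ENSTGUG00000015973, was above DDX4. The summed level of 4 erythrocyte markers in germ cells was 1626 CPM in the male and 361 CPM in the female library with these barcodes included. Markers of somatic cells were below the level of their own class in the germ cells, by amounts that differed between lists. The 7 supporting cell markers in the files summed to 193 CPM in male and 110.5 CPM in female germ cells, against 923 and 752 CPM in supporting-like cells, the 7 interstitial markers to 148 and 90.03 CPM against 2981 and 3051 CPM in interstitial-like cells, and the 8 endothelial markers to 40.75 and 22.1 CPM against 2514 and 2697 CPM in endothelial-like cells. The epithelial markers were also higher in the male germ cells, at 62.7 against 47.6 CPM. The sums for steroidogenic cells (29.1 against 36.3 CPM), macrophages (61.5 against 70.5 CPM) and neural cells (20.5 against 30.7 CPM) were lower there. Taken singly, 2 of 3 steroidogenic, 6 of 9 macrophage and 1 of 8 neural markers were higher in the male germ cells. The same held for 5 of 7 supporting, 7 of 7 interstitial, 7 of 8 endothelial and 4 of 6 epithelial markers. The part of these cells' RNA in the DDX4 ratio was not tested.

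**Figure D2:**
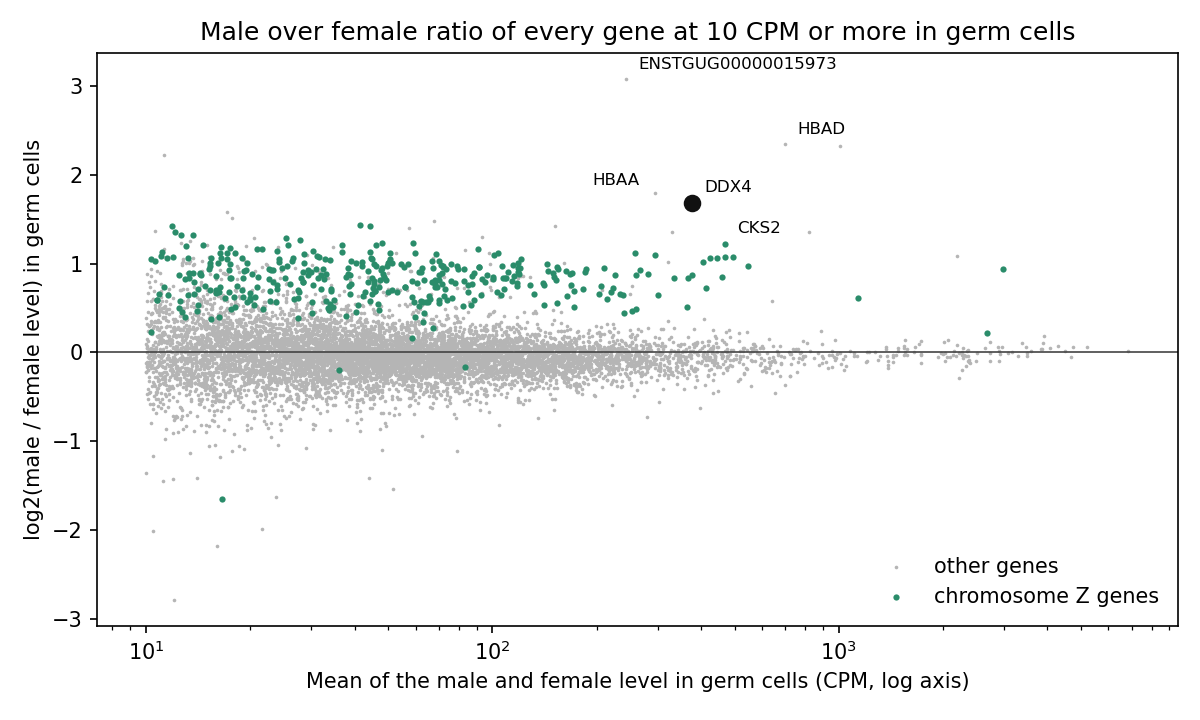
Male over female level of each gene in germ cells on the log2 scale (y axis) against the mean of the male and female levels in CPM on a log axis (x axis), for genes with a mean of at least 10 CPM and UMIs in both libraries. Genes placed on chromosome Z are green and all others, those with no placement included, are grey. DDX4 is the black point at 1.69, above every green point.

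Genes placed on chromosome Z were as a group higher in the male germ cells, and DDX4 exceeded all the others at a mean of at least 10 CPM. Genes that could not be placed, ENSTGUG00000015973 among them, were counted neither with Z nor with the other chromosomes. Of 359 genes placed on Z by the RefSeq annotation with a mean of at least 10 CPM, 356 were higher in the male library, with a median ratio of 1.78 (log2 0.84) and a 5th to 95th percentile of 0.46 to 1.18 on the log2 scale. The direction of the Z genes was also used when the barcode suffixes were assigned to the sexes, so it is not a separate finding. The 6692 genes placed on other chromosomes had a median log2 ratio of -0.04. DDX4 stood at 1.80 times the median ratio of the Z genes, and 0 of the 359 had a higher ratio than DDX4. Among all 9116 genes that reached 10 CPM in the germ cells of either library, 149 (1.63%) were at least 2-fold higher in the male and 33 (0.362%) at least 2-fold higher in the female library. Among the Z genes of that set, 81 of 367 (22.1%) were at least 2-fold higher in the male library. A 2-fold excess was thus common among genes placed on chromosome Z, and the size of the excess of DDX4 was not.

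The other ends of the Z range show how far DDX4 stood from its chromosome. At a mean of at least 50 CPM, where 161 Z genes were left, the ratio next below DDX4 was that of the nucleolar gene NOL6 with 2.36, followed by CKS2 with 2.34, the mitochondrial ribosomal gene MRPS30 with 2.24 and EXOSC5 with 2.18. The lowest ratios were 1.26 for MCC, 1.21 for the zinc finger gene ZFR, 1.16 for the chromatin gene PSIP1, 1.12 for the tRNA synthetase gene NARS1 and 0.894 for the signal peptidase gene SEC11C. In cells with SOX3, 2 of the 366 Z genes with a mean of at least 10 CPM had a higher ratio than DDX4. In cells without SOX3, 0 of 340 did.

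The neighbours of DDX4 on chromosome Z did not share its ratio. Of the 5 RefSeq genes that the files count on each side, 9 of 10 reached 10 CPM in germ cells, and their male to female ratios lay between 1.60 and 2.01 with a median of 1.75, which is near the median of all Z genes. The genes next to DDX4 are SLC38A9, an amino acid transporter, with 56.55 CPM in male and 34.15 CPM in female germ cells, a ratio of 1.66 (1.43 to 1.92), and IL6ST, the shared receptor subunit of interleukin 6 family cytokines, with 80.6 and 45.9 CPM, a ratio of 1.75 (1.55 to 1.99). Of the 9, only ANKRD55 reached 2-fold, at 2.01 (1.60 to 2.53). The interval of DDX4 lay above those of all 9. The neighbour below 10 CPM, CCNO, had 10 UMIs in the male and 3 in the female germ cells.

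**Figure D3:**
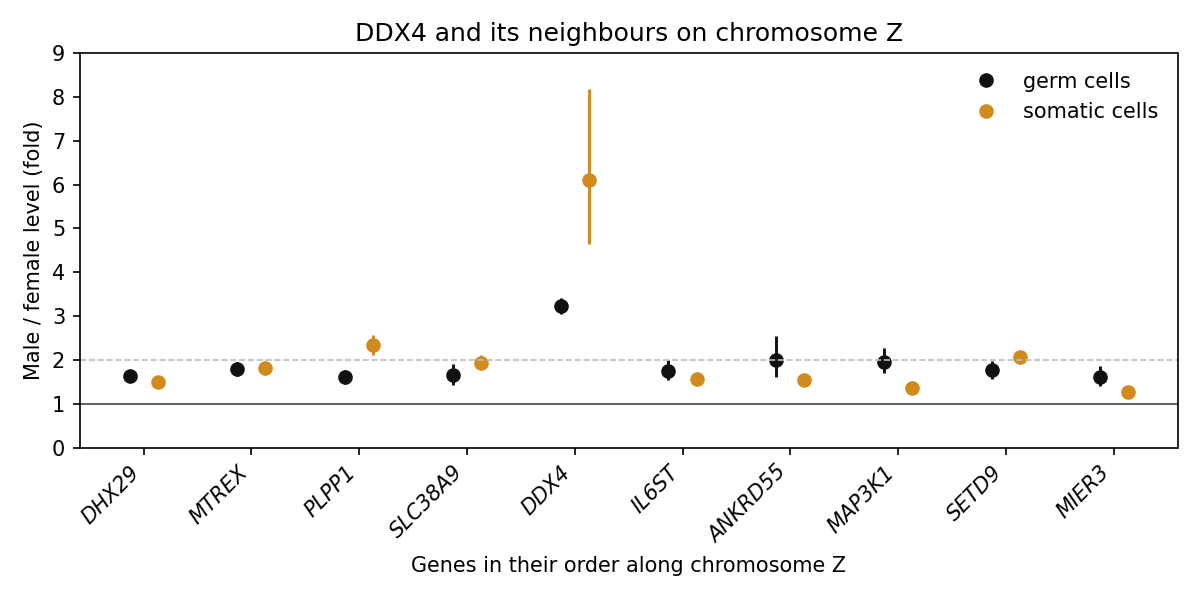
Male over female ratio (y axis, linear) of DDX4 and of the 9 neighbouring genes that reached 10 CPM in germ cells, in their order along chromosome Z (x axis), in germ cells (black) and somatic cells (ochre), with lines for 95% exact counting intervals. In germ cells DDX4 is at 3.22 and its neighbours are between 1.60 and 2.01.

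Genes listed for nuage and the piRNA pathway had lower male to female ratios than DDX4, on either side of parity. The pathway silences transposons in the germ line, and whether each listed gene works with DDX4 was not tested. Of the 27 listed, 15 were found in the files by name and 14 of them reached 10 CPM. The median ratio of these 14 was 0.948 and the range 0.748 to 2.17, against a median log2 ratio of -0.03 over all 9116 genes. Only TDRD7, a tudor domain gene of the germ granules that is also on chromosome Z, was at least 2-fold higher in the male library, with 24.8 against 11.4 CPM and a ratio of 2.17 (1.705 to 2.78), and 0 were 2-fold higher in the female library. This is 1 of 14, beside 1.63% of all genes and 22.1% of Z genes. Among the most abundant, the tudor domain gene RNF17 was at 1079 CPM in male and 1069 CPM in female germ cells, a ratio of 1.01 (0.982 to 1.04), and PIWIL1, the PIWI protein that carries piRNAs, at 398 and 370.4 CPM, a ratio of 1.07 (1.025 to 1.13). ASZ1 had a ratio of 0.904 (0.864 to 0.946), TDRD6 of 1.07 (1.003 to 1.14), TDRD12 of 0.911 (0.853 to 0.973) and MAEL of 0.968 (0.903 to 1.04). The lowest ratios were 0.748 (0.698 to 0.802) for TDRD9, 0.755 (0.675 to 0.845) for the piRNA methyltransferase gene HENMT1 and 0.806 (0.726 to 0.896) for TDRD3, all with intervals below 1. DDX4, which was selected on its male to female ratio, had a higher ratio than each of the 14 genes.

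RNA-binding genes of germ cells had lower ratios than DDX4 as well. Of 14 listed, 10 were in the files and 9 reached 10 CPM, with a median ratio of 0.946. DAZL, which binds and promotes translation of germ cell mRNAs, was at 481.5 CPM in male and 509 CPM in female germ cells, a ratio of 0.946 (0.9075 to 0.985). NANOS1, a translational repressor, was the only 1 of the 9 at 2-fold, with 27.0 against 11.8 CPM and a ratio of 2.29 (1.81 to 2.91), and it is placed on chromosome 6. The 8 other germ cell genes at 10 CPM, of 9 listed, had a median ratio of 0.843 and a range of 0.665 to 0.972. Among them were the meiotic cohesin gene SMC1B with 491 and 576 CPM, the meiotic gene HORMAD1 with 659 and 790 CPM, and the pluripotency gene NANOG with 289 and 352 CPM in male and female germ cells. The count at 2-fold in the male library was 1 of 9 and 0 of 8 in these lists, beside 1.63% of all genes. Unlike DDX4, 0 of these genes are placed on chromosome Z, whose genes had a median ratio of 1.785. SOX3 and NANOG were not placed on a chromosome.

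Relatives of DDX4 by name that reached 10 CPM did not show its ratio either. Of 23 other genes whose symbol starts with DDX, 21 reached 10 CPM in germ cells, and 0 of the 21 were 2-fold higher in either library. Of all 9116 genes, 1.63% were 2-fold higher in the male and 0.362% in the female library. The count of 0 of 21 is thus near the share of all genes. The ratios of the 21 ran from 0.787 for DDX59 to 1.17 for DDX52, with a median of 1.001, and none of them is placed on chromosome Z. DDX5 was the most abundant, at 833 CPM in male and 918.5 CPM in female germ cells. DDX25, a testis helicase in mammals, was at 266 and 265 CPM. Below 10 CPM, DDX58, which was not placed on a chromosome here, had 8.96 CPM in male and 3.60 CPM in female germ cells. Its ratio was 2.49 (1.63 to 3.91), with an interval that holds the ratio of DDX4. DDX28 had a ratio of 0.957 (0.4496 to 2.08).

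**Figure D4:**
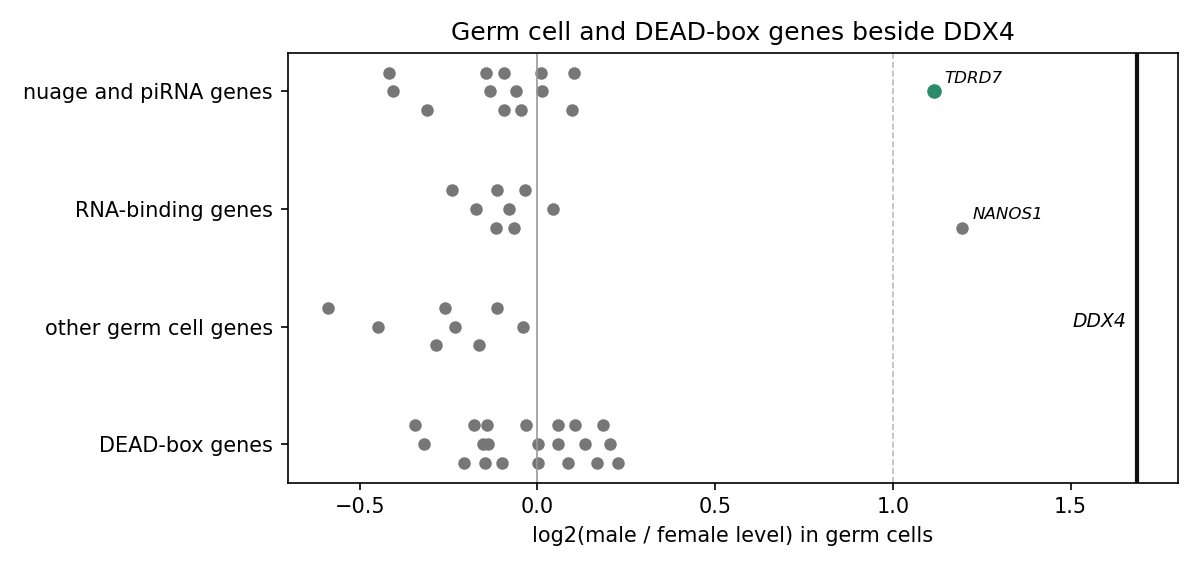
Male over female level in germ cells on the log2 scale (x axis) of each gene at 10 CPM or more in the 4 lists (y axis, with points spread vertically only to keep them apart), with chromosome Z genes in green and DDX4 as the black line at 1.69. TDRD7 at 1.12 and NANOS1 at 1.19 are the only points past the dashed line of 2-fold.

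The genes whose levels most resembled those of DDX4 were found by correlation across the data. Over 24 points, made of the germ cell classes, the shallow germ barcodes, the somatic classes and the near-empty barcodes of each library, Pearson's r of log2(CPM + 5) with DDX4 was highest for ENSTGUG00000024172 (0.978), REC114, a meiotic recombination gene in mammals and yeast (0.975), ENSTGUG00000011461 (0.969), ENSTGUG00000019695 (0.967) and VGLL3 (0.963), among 8906 genes, of which 22 had an r of at least 0.95 and 128 of at least 0.9. These points share libraries and free RNA, and the values are descriptions. In germ cells the male to female ratios of these 5 genes lay between 1.055 and 1.62, below that of DDX4.

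Outside germ cells DDX4 was low, and again higher in the male library. Somatic cells gave 383 UMIs in the male library, 5.76 CPM (5.2 to 6.37), and 59 UMIs in the female library, 0.943 CPM (0.718 to 1.22), a ratio of 6.11 (4.64 to 8.18). The ratio was smaller in the cells with 1 to 4 DND1 UMIs, at 2.11 (1.33 to 3.48). They had 8.55 CPM (7.13 to 10.2) in the male and 4.06 CPM (2.54 to 6.14) in the female library. At least 1 DDX4 UMI was seen in 5.51% of male and 0.931% of female somatic cells, at median depths of 9187 and 9282 UMIs. By class, the level in the male library was 6.65 CPM (4.70 to 9.12) in supporting-like, 6.88 CPM (5.62 to 8.32) in epithelial-like, 6.60 CPM (5.39 to 7.99) in interstitial-like, 5.47 CPM (3.43 to 8.28) in endothelial-like and 2.17 CPM (0.873 to 4.47) in erythrocyte-like cells. In the female library it was 1.525 CPM (0.6975 to 2.90), 0.912 CPM (0.540 to 1.44), 0.619 CPM (0.227 to 1.35), 2.11 CPM (0.685 to 4.92) and 0.246 CPM (0.0062 to 1.37) in the same order. Among the male somatic classes, only the erythrocyte-like cells had an interval below those of the supporting-like, epithelial-like and interstitial-like cells.

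The other named somatic classes held few DDX4 UMIs. Steroidogenic-like cells had 3 in the male and 1 in the female library, and macrophage-like cells 2 in each. Neural-like cells had 2 in the male library and 0 in 51 cells of the female library, which allows up to 3.865 CPM. Clusters with too few raised markers for a name held more, with 100 DDX4 UMIs in the male and 17 in the female library. Their levels were 4.72 CPM (3.84 to 5.74) in the male and 0.970 CPM (0.565 to 1.55) in the female library.

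Near-empty barcodes, taken here to stand for RNA free in the suspension, had more DDX4 than somatic cells. Those of 1 to 100 UMIs numbered 1442576 in the male and 1405560 in the female library. They held 2044345 and 2019629 UMIs in all, so most had very few. Whether they are droplets with free RNA was not tested. Barcodes of 1 to 100 UMIs gave 60.2 CPM (50 to 71.8) from 123 UMIs in the male and 13.9 CPM (9.21 to 20.04) from 28 UMIs in the female library, a ratio of 4.34 (2.86 to 6.80). Barcodes of above 200 and below 500 UMIs, 69952 in the male and 37837 in the female library, were higher still in the male library, at 122 CPM (118 to 127) against 13.6 CPM (11.3 to 16.2), a ratio of 9.003 (7.53 to 10.8). Other germ cell genes were also higher in the male library there, from 1.31-fold for BOLL to 2.30-fold for DND1. HBAD gave 399917 male and 163588 female UMIs in this range, but 5938 and 136834 in barcodes of above 100 and up to 200 UMIs. Whether 1 range of UMIs holds like barcodes in both libraries was not tested. In both libraries the level in somatic cells was below that in all these barcodes, and germ cells were above them.

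**Figure D5:**
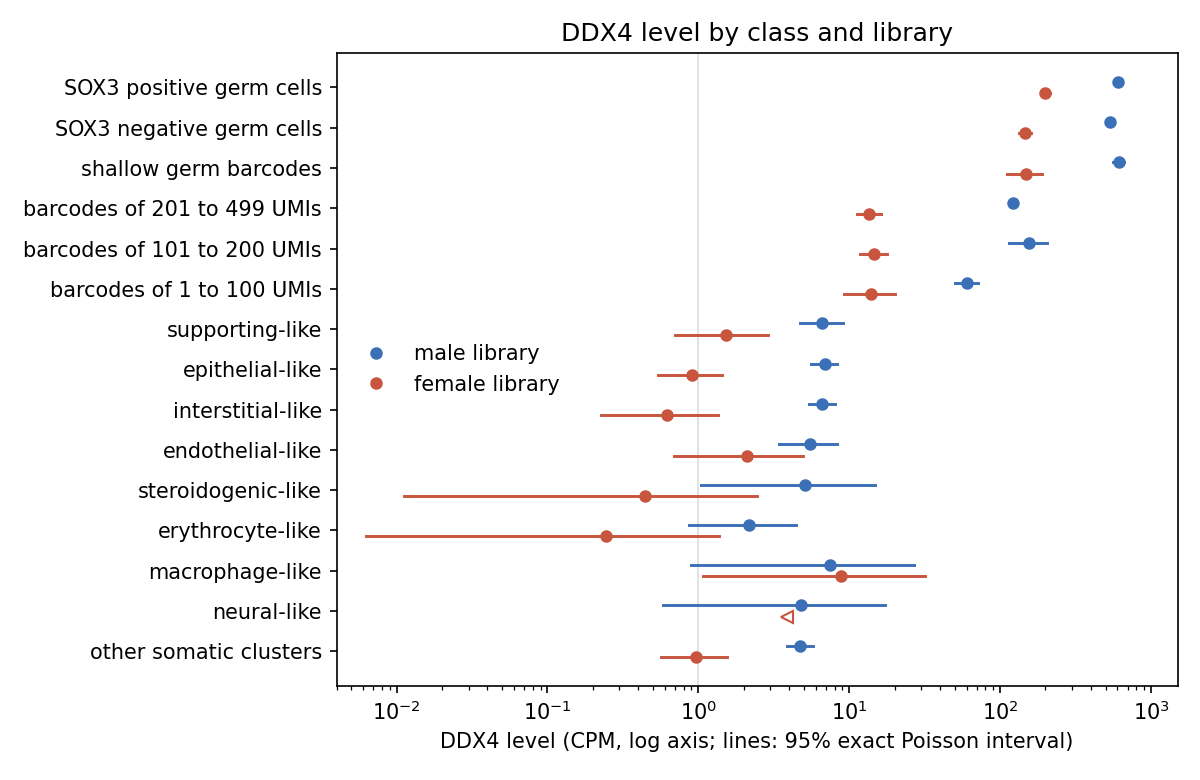
DDX4 level in CPM on a log axis (x axis) in each class of cells or barcodes (y axis) of the male (blue) and female (red) library, with 95% exact Poisson intervals as lines, and an open triangle at the limit of 3.865 CPM for a class with 0 UMIs. Germ cells are at 608 (male) and 200 CPM (female) with SOX3, and at 536 and 146 CPM without it. Shallow germ barcodes are at 611 and 148 CPM, and barcodes of 1 to 100 UMIs at 60.2 and 13.9 CPM. The somatic classes lie below these in each library. The male library is higher in every class but the macrophage-like cells.

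Measured against other germ cell genes of the same library, DDX4 was higher in the male library in each class set out below. The amount varied outside germ cells. Somatic cells were pooled for this measure, and whether it held in each named somatic class was not tested. For each 100 UMIs of 6 other germ cell genes (DAZL, PIWIL1, RNF17, SMC1B, RBM46 and BOLL), there were 19.0 DDX4 UMIs in male germ cells (exact interval 18.5 to 19.5), 16.8 in male somatic cells (15.1 to 18.8) and 17.8 in male barcodes of 1 to 100 UMIs (14.6 to 21.6). In the female library there were 5.64 (5.34 to 5.95), 4.96 (3.75 to 6.45) and 5.996 (3.94 to 8.78). Within each library, the intervals of these 3 values overlapped. The male value was thus 3.37 times the female value in germ cells, 3.39 times in somatic cells and 2.97 times in barcodes of 1 to 100 UMIs. It was higher in other shallow barcodes, at 4.88 times in shallow germ barcodes, 6.82 times in barcodes of above 100 and up to 200 UMIs, where the male library had 49 DDX4 UMIs, and 4.99 times in those of above 200 and below 500 UMIs. The 6 genes together had a male to female ratio of 0.955 (0.939 to 0.971) in germ cells and 0.849 (0.787 to 0.917) in shallow germ barcodes. It was 1.80 (1.68 to 1.93) in somatic cells and 1.46 (1.30 to 1.65) in near-empty barcodes. In somatic cells and near-empty barcodes the 6 genes together were thus also the more frequent in the male library. In cells with 1 to 4 DND1 UMIs their ratios ran from 0.351 for SMC1B to 0.838 for PIWIL1.

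Whether shallow barcodes of the male library held relatively more DDX4 depended on the gene it was set against. For each 100 UMIs of the same 6 genes there were 26.8 (24.2 to 29.6) in male shallow germ barcodes and 26.7 (25.6 to 27.9) in male barcodes of above 200 and below 500 UMIs, with intervals above that of male germ cells. In the female library the values were 5.49 (4.14 to 7.16) and 5.35 (4.44 to 6.40), with intervals that overlapped that of female germ cells. Set against DND1, whose UMIs chose the germ cells and the shallow germ barcodes, the order turned. For each 100 DND1 UMIs there were 35.9 DDX4 UMIs in male germ cells, 25.8 in male shallow germ barcodes and 28.3 in male barcodes of above 200 and below 500 UMIs, and 11.5, 5.96 and 7.25 in the female library. By this measure the male value was 3.125, 4.34 and 3.91 times the female value. With either measure, DDX4 for each UMI of the reference genes was thus higher in the male library. This held in germ cells, in shallow germ barcodes and in barcodes of above 200 and below 500 UMIs.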

How the data were processed

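The authors deposited UMI counts per gene and barcode, made with Cell Ranger 5.0.0 per the labels, as whole numbers before cell calling and normalization. The build is bTaeGut1_v1 in the study's methods. Suffix 1 of the barcodes was assigned to the male and suffix 2 to the female library, since the study's figure puts the male pool first, and the chromosome Z genes were higher under suffix 1 in germ and somatic cells. Cells, classes and levels were computed here with python 3.11.15, numpy 2.4.6, scipy 1.17.1, pandas 2.3.3 and scanpy 1.11.5. Somatic cells were clustered (2000 variable genes, 20 principal components, 20 neighbours, Leiden resolution 0.8). They were named "-like" from at least 3 markers raised 1.5-fold and at least 50% of the listed ones found in the files. Clusters of 1222 male and 7 female cells, with DMRT1 among the most raised genes, and of 66 male and 1067 female cells stayed unnamed. They are not in the supporting-like class. Doublets were not called and were left in.

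CPM are the UMIs of a gene over all UMIs of the class. Ratios have no pseudocount. Intervals are 95% exact Poisson, for ratios exact conditional binomial, and 0 counts were read as at most 3 UMIs. The calculations were tested on simulated data. No test between the sexes was possible with 1 library each. Symbols placed 10525 genes on chromosomes of assembly bTaeGut7.mat, 507 of them on Z, for names and order only, since the builds differ. DDX4 and the lists were chosen with earlier results of these data known. Named genes were up to 6 per list by mean level, the 2-fold ones, the 5 neighbours on each side, the 5 highest and lowest Z ratios and the nearest ratios of similar level. The symbols TDRD7, NANOS1, TDRD9, HENMT1, TDRD3, DDX25, DDX28, DDX52, DDX58 and DDX59 were added after their values were seen. DAZL, PIWIL1 and NANOG have no symbol in the files and were taken by the identifiers the study pairs with them.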

Additional observations from a re-analysis of the deposited data

How the results depend on the processing

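No paired analysis was possible because each sex has 1 library, and for the same reason no library could be left out. Of 80 recomputed values over 7 results, 75 stayed within the counting interval of the value reported, 5 moved beyond it and 0 changed direction. With every cell thinned to 5000 UMIs, in a draw separate from that of the per-cell values, the log2 ratio of DDX4 in germ cells was 1.83 in place of 1.69, and in cells with SOX3 1.88 in place of 1.60, or 1.82 with SOX3 status taken from all UMIs. In cells without SOX3 it was 1.82 and 1.87. The draw of the per-cell values gave 1.81 in all germ cells, 1.61 with and 2.19 without SOX3, so single draws scatter and do not fix the order of the SOX3 classes. The mean over all draws was 1.73, 1.64 and 1.90, each within the interval of the value reported. With free RNA subtracted up to the limit set by hemoglobin UMIs, it was 2.03 in place of 1.87 in cells without SOX3, where the limit was 12.0% of the UMIs in the male library. Without the 2 hemoglobin-rich male barcodes that limit was 2.11% and the value 1.90. With 5 CPM added, the log2 ratio in somatic cells was 0.86 in place of 2.61, since both levels are near or below the added 5 CPM. The log2 ratio of DDX4 in germ cells was from 1.66 to 1.76 under all settings but thinning. Cell minimums of 2000 and 10000 UMIs, DND1 minimums of 3 and 10, DAZL in place of DND1, the deepest 5% left out, median centring and SOX3 minimums did not move the results for cells with and without SOX3 beyond their intervals. From 0.115% to 0.365% of genes of similar level were above DDX4 over all settings, windows of 1.5-fold and 4-fold included, and the median log2 ratio of Z genes was between 0.82 and 0.86. Leaving out germ cells rich in hemoglobin, or those whose barcode was also deep in the other library, gave 1.69 for both. These, the subtraction without the hemoglobin-rich barcodes, the SOX3 status from all UMIs and the mean over draws were added after seeing the data. Depth limits the somatic classes, where the female library holds from 0 to 18 DDX4 UMIs per class.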

Other observations

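ENSTGUG00000015973, which has no symbol in the files and is not placed on a chromosome here, was the gene with the highest male to female ratio at a mean of 10 CPM or more in germ cells, at 434 CPM against 51.4 CPM. In somatic cells it was at 9.525 CPM in the male and 2.43 CPM in the female library. ISYNA1, which encodes the enzyme that makes inositol phosphate from glucose phosphate, was at 18.6 CPM in male and 3.97 CPM in female germ cells. It was more abundant in somatic cells, with 143 CPM in the male and 45.9 CPM in the female library. MRPS36, a gene placed on chromosome Z, ran against its chromosome, with 8.04 CPM in male and 25.2 CPM in female germ cells. These 3 genes were chosen after their values were seen.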
